A study of Mus musculus with 9 samples.

Results

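The NF-kappaB subunits and inhibitors were followed as 10 genes chosen by symbol from the 24346 genes listed for each library. They are the subunit genes Rel, Rela, Relb, Nfkb1 and Nfkb2, the IkappaB-type inhibitor genes Nfkbia, Nfkbid, Nfkbie and Nfkbiz, and Tnfaip3. The rule used the gene names, and the genes were picked with earlier results of these data known. RNA was sequenced from B cells sorted from spleens of wild-type C57BL6 mice, with 3 libraries in each of 3 groups. FO B (Young) were follicular (FO) B cells of mice aged 8 weeks, and FO B (Aged) were the same population of mice aged 50 weeks, sorted as B220 high, CD43-, CD23+ and CD21 low cells. ABCs (Aged) were age-associated B cells of mice aged 50 weeks, sorted with the same B220, CD43 and CD21 gates but as CD23- cells positive for CD11b and CD11c. The labels name no treatment and do not give the sex of the mice. ABCs of young mice were not analysed here, so ABCs (Aged) differ from FO B (Young) in both phenotype and age.

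NF-kappaB transcription factors are dimers of the Rel family. Rela (p65), Rel (c-Rel) and Relb carry the transactivating domains, whereas Nfkb1 and Nfkb2 encode the precursors p105 and p100, which are processed to p50 and p52. In resting cells the IkappaB proteins hold the dimers in the cytoplasm until the IkappaB kinase marks the inhibitor for degradation, and several inhibitor genes are themselves induced by NF-kappaB. In B cells the antigen receptor, Toll-like receptors and CD40 feed the canonical arm, and the BAFF receptor and CD40 feed the noncanonical arm, in which p100 is processed and Relb is released.

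Promoter sequence from RefSeq (GRCm38.p6) covered 7 of the 10 genes, and Nfkb1, Relb and Nfkbiz had no entry. Each entry runs from 250 bases before to 50 bases after an annotated start. The kappaB consensus decamer, searched on both strands, was present in at least 1 entry of 6 of the 7 genes, in all but Rela, against 5.14% of the 27025 genes in the collection. The looser pattern GGGNNNNNCC, which every decamer match also fits, was present in all 7 genes, against 53.5% of all genes. The last 200 bases before the start are shown for Tnfaip3 and Nfkbie, which were higher in ABCs, for Rel and Nfkb2, which were lower, and for Nfkbia, which was not called different. Sequences are written 5′ to 3′ on the strand of the gene, and capitals mark decamer matches on either strand, with overlapping matches joined into 1 run.
Tnfaip3, chr10:19015411-19015610, minus strand: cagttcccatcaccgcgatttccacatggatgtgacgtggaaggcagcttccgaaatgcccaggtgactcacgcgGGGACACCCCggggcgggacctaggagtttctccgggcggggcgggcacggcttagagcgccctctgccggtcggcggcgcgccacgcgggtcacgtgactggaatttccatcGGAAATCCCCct
Nfkbie, chr17:45555500-45555699, plus strand: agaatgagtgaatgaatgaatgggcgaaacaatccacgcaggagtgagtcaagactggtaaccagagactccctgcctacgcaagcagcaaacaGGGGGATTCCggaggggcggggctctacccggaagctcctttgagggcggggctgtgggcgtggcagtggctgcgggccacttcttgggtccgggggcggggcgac
Rel, chr11:23770970-23771169, minus strand: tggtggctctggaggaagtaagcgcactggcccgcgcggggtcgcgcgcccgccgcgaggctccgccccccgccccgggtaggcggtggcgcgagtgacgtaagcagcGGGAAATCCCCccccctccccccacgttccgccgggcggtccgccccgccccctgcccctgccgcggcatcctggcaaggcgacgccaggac
Nfkb2, chr19:46304537-46304736, plus strand: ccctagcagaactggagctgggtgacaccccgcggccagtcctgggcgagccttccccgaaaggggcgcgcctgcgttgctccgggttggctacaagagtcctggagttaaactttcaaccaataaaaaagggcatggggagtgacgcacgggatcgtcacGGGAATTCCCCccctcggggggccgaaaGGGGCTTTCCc
Nfkbia, chr12:55492648-55492847, minus strand: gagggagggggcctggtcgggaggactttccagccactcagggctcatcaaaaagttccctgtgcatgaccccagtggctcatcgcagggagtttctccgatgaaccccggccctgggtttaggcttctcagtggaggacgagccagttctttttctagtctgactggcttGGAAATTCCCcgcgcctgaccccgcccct
All stretches shown held decamer matches, but they were a selection and compare nothing between the genes. Tnfaip3 has 2 entries and Nfkb2 has 3, and the same stretch of the entries not shown held no match. That stretch held none in Rela, which was not called different. Nfkbid, which was lower, had entries with and without a match there. A match is a run of letters, and binding was not measured.

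Values are FPKM, by definition the reads of a gene scaled to the length of its transcript and to the mapped reads of the library. Levels of different genes can thus be set side by side. The tests were made with limma on log2(FPKM + 1) over every gene that averaged 1 FPKM or more in the 6 libraries compared, and a gene was called at a Benjamini-Hochberg FDR under 0.05. Fold changes are differences on this log2 scale. The depth was estimated from the smallest steps of the values at 7390000 to 8880000 mapped reads per library. This estimate assumes that each library was scaled to its own mapped reads. At that depth the members stood on approximately 460 reads (Nfkbiz) to 6030 reads (Nfkbia) in their lowest and highest library. The labels do not say which libraries came from the same mouse, and p-values measure the spread between these libraries. With 3 libraries against 3, an exact permutation test cannot give a p below 0.1.

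The libraries carried the markers of their gates. Fcer2a (CD23) and Cr2 (CD21) summed to 844 to 886 FPKM in FO B (Aged) and to 1.21 to 15.3 FPKM in ABCs (Aged). Itgam (CD11b), Itgax (CD11c) and Tbx21 summed to 5.94 to 9.34 FPKM in FO B (Aged) and to 278 to 292 FPKM in ABCs (Aged). Fcer2a, Itgam and Itgax encode proteins on which the gates of the groups differ and are no result. Cr2 was at a mean of 151 FPKM in FO B (Aged) and 4.69 FPKM in ABCs (Aged), although both groups were gated as CD21 low. The cause of this difference was not tested.

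In ABCs (Aged) against FO B (Aged), 6 of the 10 members were called different, 3 higher and 3 lower. Tnfaip3, Nfkbiz and Nfkbie, which all encode inhibitors or regulators, were higher. Rel and Nfkb2, which encode subunits, and Nfkbid, an inhibitor gene, were lower, whereas the libraries of Rela, Relb, Nfkb1 and Nfkbia overlapped between the groups. Over all 10412 genes tested, 35.9% were called, 19.4% as higher and 16.5% as lower, so called genes were common in this comparison. The libraries of the groups did not overlap for the same 6 members, against 52.6% of all genes tested. No member passed the stricter rule of an absolute log2 fold change above 2.3 at an FDR under 0.01, which 1.92% of genes passed.

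**Figure D1:**
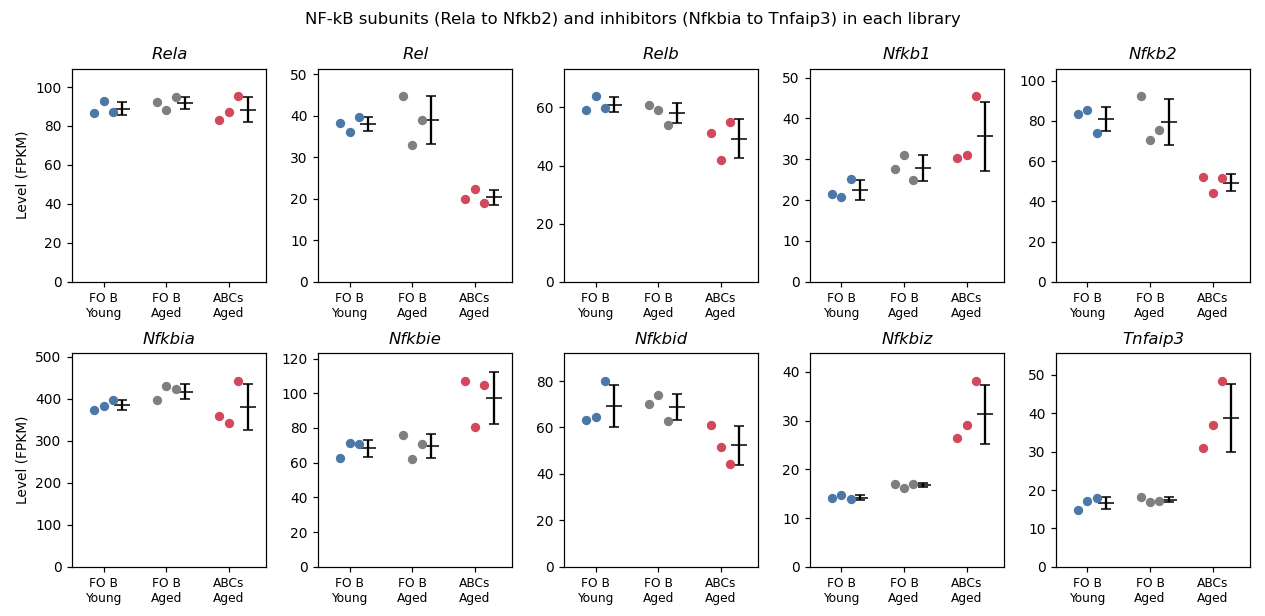
Level of each of the 10 members in FPKM on a linear axis from 0, 1 panel per gene, with 1 point per library and the mean ± SD of the 3 libraries in black, for FO B (Young), FO B (Aged) and ABCs (Aged). Rel lies at 18.9 to 22.3 FPKM in ABCs (Aged), below the FO B libraries, and Tnfaip3 lies at 30.9 to 48.4 FPKM, above them.

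Among the subunit genes, Rel had the largest decrease. Rel encodes c-Rel, a subunit needed for B cell proliferation and survival after antigen receptor stimulation. Its level was 38.1, 36.1 and 39.6 FPKM in FO B (Young), 44.6, 33.0 and 38.9 FPKM in FO B (Aged) and 19.8, 22.3 and 18.9 FPKM in ABCs (Aged). The 3 ABC libraries were all below the 6 FO B libraries, and the FO B groups overlapped. Rel fell by 0.89 on the log2 scale against FO B (Aged), with an SE of 0.12 and a limma FDR of 0.00162. In the ranking of genes at 1 FPKM or more within a library, Rel stood above 70.3% to 77.2% of genes in FO B (Aged) and above 55.9% to 61.1% in ABCs (Aged). The gene spans 23736847 to 23770970 on the minus strand of chromosome 11 (GENCODE M21, GRCm38) and has 1 annotated transcript of 10 exons.

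Nfkb2, the precursor gene of the noncanonical subunit p52, was also lower. Its level was 83.3, 85.4 and 74.2 FPKM in FO B (Young), 92.2, 70.6 and 75.5 FPKM in FO B (Aged) and 52.2, 44.4 and 51.5 FPKM in ABCs (Aged). Every ABC library was below every FO B library, and FO B (Aged) replicate 1 was the highest of all. Nfkb2 fell by 0.67 on the log2 scale against FO B (Aged), with an SE of 0.12 and a limma FDR of 0.00428. It spans 46304320 to 46312385 on the plus strand of chromosome 19, and its exons share 299 bases with those of Psd and 531 bases with those of AC114539.1, a noncoding RNA gene, both on the opposite strand. No value of AC114539.1 was used here. The library kit does not mark strand, so reads from these bases cannot be assigned. Psd itself was at a mean of 4.01 FPKM in FO B (Aged) and 2.09 FPKM in ABCs (Aged).

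Nfkb1, the precursor gene of the canonical subunit p50, was the subunit gene with the widest spread among ABC libraries. Its level was 21.4, 20.8 and 25.3 FPKM in FO B (Young), 27.7, 31.2 and 24.8 FPKM in FO B (Aged) and 30.3, 31.1 and 45.4 FPKM in ABCs (Aged). ABCs (Aged) replicate 3 stood apart at the top, and replicates 1 and 2 overlapped the aged FO B libraries. The log2 fold change was 0.32 with a 95% interval of -0.06 to 0.71 and a limma FDR of 0.166, so a difference from FO B (Aged) was not called. Under upper-quartile scaling it was 0.50 (limma FDR 0.0265) and thus called. That scaling also moved the median of all genes to 0.15, and relative to this median Nfkb1 was 0.34.

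Rela and Relb, which encode transactivating subunits of the canonical and noncanonical arm, differed less. Rela was at 86.5, 92.9 and 87.4 FPKM in FO B (Young), 92.3, 88.3 and 94.9 FPKM in FO B (Aged) and 82.8, 87.0 and 95.2 FPKM in ABCs (Aged), and all groups overlapped. Its log2 fold change against FO B (Aged) was -0.06 with a 95% interval of -0.23 to 0.11. Relb was at 59.1, 63.8 and 59.8 FPKM in FO B (Young), 60.7, 59.2 and 54.0 FPKM in FO B (Aged) and 51.1, 41.8 and 54.8 FPKM in ABCs (Aged). ABCs (Aged) replicate 3 overlapped FO B (Aged), the other ABC libraries were below it, and the log2 fold change was -0.24 with a 95% interval of -0.50 to 0.02 and a limma FDR of 0.130. Without ABCs (Aged) replicate 3 it was -0.32 with a limma FDR of 0.0471.

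The 5 subunit genes can also be read as shares of their sum. Rel made up 13.1% ± 1.23 of the summed FPKM of the 5 subunit genes in FO B (Aged) and 8.46% ± 1.37 in ABCs (Aged) (SD, n = 3). Nfkb2 made up 26.8% ± 2.06 and 20.3% ± 1.51 in the same order. The share of Nfkb1 was 9.46% ± 1.37 in FO B (Aged) and 14.5% ± 2.24 in ABCs (Aged), and that of Rela was 31.1% ± 1.94 and 36.4% ± 1.73. The sum of the 5 genes was 296 ± 18.8 FPKM in FO B (Aged) and 243 ± 20.5 FPKM in ABCs (Aged). Shares add to a constant, so a lower share of Rel and Nfkb2 goes with a higher share of the others, and the shares were not tested. In sorted bulk RNA, fewer cells with a transcript and less transcript per cell cannot be told apart.

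**Figure D2:**
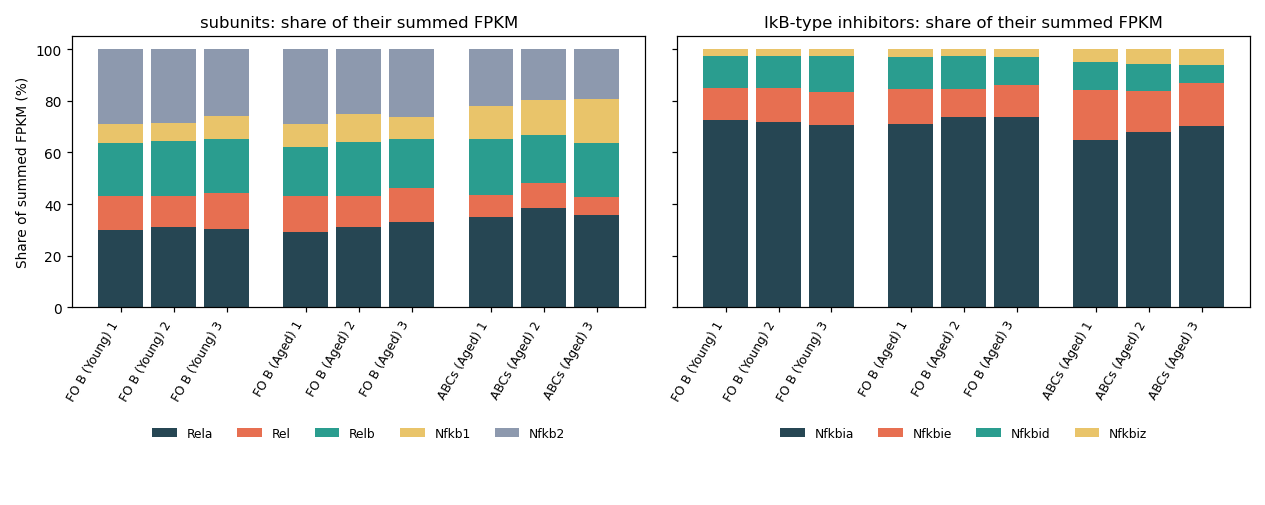
Share of each gene, in percent of the summed FPKM of the 5 subunit genes (left) and of the 4 IkappaB-type inhibitor genes (right), as 1 stacked bar per library of FO B (Young), FO B (Aged) and ABCs (Aged). Rel takes 7.12% to 9.86% in ABCs (Aged) and 11.7% to 14.1% in FO B (Aged), and Nfkbiz takes 4.80% to 6.06% and 2.79% to 3.03%.

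Among the inhibitor genes, Tnfaip3 had the largest rise of all members. It encodes A20, a ubiquitin-editing enzyme that restrains signalling to NF-kappaB and is itself an NF-kappaB target. Its level was 14.9, 17.0 and 17.9 FPKM in FO B (Young), 18.1, 17.0 and 17.2 FPKM in FO B (Aged) and 30.9, 37.0 and 48.4 FPKM in ABCs (Aged). The 3 ABC libraries were all above the 6 FO B libraries and spread more widely than them. Tnfaip3 rose by 1.09 on the log2 scale against FO B (Aged), with an SE of 0.15 and a limma FDR of 0.00179. It stood above 51.9% to 53.8% of genes at 1 FPKM or more in FO B (Aged) and above 69.0% to 78.6% in ABCs (Aged). The gene spans 19000910 to 19015657 on the minus strand of chromosome 10, with up to 9 exons.

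Nfkbiz encodes IkappaBzeta, an atypical nuclear protein that binds p50 and can act as a coactivator. Its level was 14.1, 14.7 and 13.8 FPKM in FO B (Young), 17.0, 16.2 and 17.0 FPKM in FO B (Aged) and 26.5, 29.2 and 38.1 FPKM in ABCs (Aged). The order of the 3 ABC libraries was the same as for Tnfaip3, and the lowest of them was above every FO B library. Nfkbiz rose by 0.85 on the log2 scale, with an SE of 0.13 and a limma FDR of 0.00283.

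Nfkbie encodes IkappaBepsilon, a cytoplasmic inhibitor of Rela and c-Rel dimers. Its level was 62.7, 71.5 and 70.5 FPKM in FO B (Young), 75.9, 62.1 and 70.5 FPKM in FO B (Aged) and 107, 80.3 and 105 FPKM in ABCs (Aged). All 3 ABC libraries were above the FO B libraries, and replicate 2 was the lowest of them. Nfkbie rose by 0.47 with an SE of 0.13 and a limma FDR of 0.0257. This call was lost in 4 of 16 alternatives. The limma FDR was 0.139 with no filter, 0.0826 and 0.0695 when FO B (Aged) replicate 2 or 3 was left out, and 0.0807 when ABCs (Aged) replicate 1 was.

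Nfkbid, which encodes IkappaBNS, another atypical nuclear inhibitor, moved the other way. Its level was 63.4, 64.5 and 79.9 FPKM in FO B (Young), 70.0, 73.9 and 62.7 FPKM in FO B (Aged) and 61.2, 51.4 and 44.4 FPKM in ABCs (Aged). The ABC libraries were all below the FO B libraries, with replicate 1 only slightly so. Nfkbid fell by 0.40 with an SE of 0.12 and a limma FDR of 0.0422. The call was lost in 8 of 16 alternatives, with a limma FDR of 0.438 under upper-quartile scaling, 0.183 with no filter and 0.0636 without a trend. Upper-quartile scaling moved the median of all genes to 0.15, and relative to this median Nfkbid was -0.37. Leaving out FO B (Aged) replicate 1, 2 or 3 gave limma FDRs of 0.118, 0.124 and 0.0582, and leaving out ABCs (Aged) replicate 2 or 3 gave 0.0891 and 0.0678.

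Nfkbia, which encodes IkappaBalpha, an inhibitor that NF-kappaB induces rapidly, was the most abundant member in all 9 libraries. Its level was 373, 382 and 396 FPKM in FO B (Young), 397, 430.4 and 422 FPKM in FO B (Aged) and 358, 341 and 441 FPKM in ABCs (Aged). ABCs (Aged) replicate 3 was above all 6 FO B libraries, and the other 2 ABC libraries were below them. The log2 fold change was -0.14 with a 95% interval of -0.38 to 0.10 and a limma FDR of 0.326. Without ABCs (Aged) replicate 3 it was -0.25 with an FDR of 0.0210, so this library decides the call.

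The order of the members by level (FPKM) was compared between the aged groups. In FO B (Aged) the order was Nfkbia, Rela, Nfkb2, Nfkbie, Nfkbid, Relb, Rel, Nfkb1, Tnfaip3 and Nfkbiz, with Rela to Nfkbid overlapping between neighbours and Tnfaip3 overlapping Nfkbiz. In ABCs (Aged) it was Nfkbia, Nfkbie, Rela, Nfkbid, Nfkb2, Relb, Tnfaip3, Nfkb1, Nfkbiz and Rel, with neighbours overlapping everywhere except below Nfkbia, below Rela and above Rel. By mean level, Rel was the lowest member in ABCs (Aged) and Nfkbiz in both FO B groups.

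**Figure D3:**
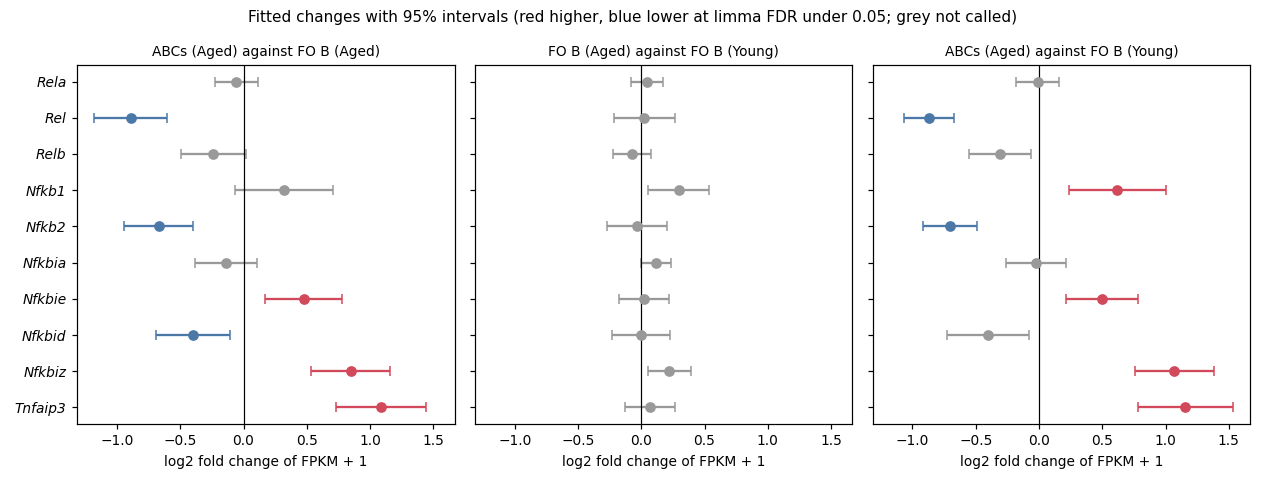
Fitted log2 fold change of FPKM + 1 with its 95% interval for the 10 members, 1 panel per comparison and 1 row per gene, in red where called higher and in blue where called lower at a limma FDR under 0.05. The middle panel, FO B (Aged) against FO B (Young), has no call, and the outer panels, with ABCs (Aged), both have Tnfaip3 and Nfkbiz as higher and Rel and Nfkb2 as lower.

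Between the ages of FO B cells no member was called, against 0.464% of the 10122 genes tested. At an unadjusted limma p under 0.05, 2 members passed, against 12.8% of genes. These were Nfkb1, with a log2 fold change of 0.30 and an FDR of 0.279, and Nfkbiz, with 0.22 and 0.246. Nfkbiz and Nfkbia did not overlap between the ages, against 9.64% of genes that were higher in that way, and both had the smallest exact permutation p the design allows, 0.1. Nfkbia differed by 0.12 on the log2 scale with a limma FDR of 0.405. No other tool was run on this comparison.

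ABCs (Aged) were also set against FO B (Young), a comparison that shares the ABC libraries and differs in age. Of the 10 members, 4 were called higher and 2 lower, against 21.6% and 19.1%, together 40.7%, of the 10438 genes tested. Tnfaip3 (log2 fold change 1.16, FDR 0.00142), Nfkbiz (1.07, FDR 0.000868), Nfkbie (0.50, FDR 0.0147) and Nfkb1 (0.62, FDR 0.0205) were higher in limma. Rel fell by 0.87 (FDR 0.000312) and Nfkb2 fell by 0.70 (FDR 0.000993). Relb (-0.31, FDR 0.0508) and Nfkbid (-0.40, FDR 0.0518) did not pass, with libraries that lay fully below FO B (Young). For 8 of the 10 members the libraries did not overlap, against 55.3% of genes. The call of Nfkb1 was lost without FO B (Young) replicate 1 or 2 (limma FDR 0.0698 and 0.0723) and with no filter (0.127), and that of Nfkbie without FO B (Young) replicate 1 (0.0580) and with no filter (0.0965). Relb was called in 5 of 16 alternatives and Nfkbid in 4. Both were called with quantile normalization, with TPM scaling and with all 9 libraries. Relb was also called with a filter of 5 FPKM and without ABCs (Aged) replicate 3 (0.0148), and Nfkbid without ABCs (Aged) replicate 1 (0.0256).

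The other genes of the pathway were read from lists. Of 17 tested genes of the other inhibitors, 2 were higher in ABCs (Aged) than in FO B (Aged) and 3 lower. Over all genes tested, 19.4% were higher and 16.5% lower, which is the background for each list here. The median log2 fold change of the other inhibitors was 0.00, against -0.01 over all genes tested. Rnf11, a partner of A20, rose by 0.57 (limma FDR 0.00508). Zc3h12a, which encodes the RNase Regnase-1, fell by 0.75 (FDR 0.00428), Otud7b, which encodes a deubiquitinase, fell by 0.63 (FDR 0.0119), and Tax1bp1, which encodes an adaptor of A20, fell by 0.46 (FDR 0.00131). Without FO B (Aged) replicate 1 or 2, or ABCs (Aged) replicate 1, 1 gene was higher, as also with quantile normalization and without a trend. With a filter of 5 FPKM or upper-quartile scaling 1 gene was lower.

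Of the 22 tested genes of the IkappaB kinase and canonical activators, 3 were higher and 3 lower, against 19.4% and 16.5% of all genes, with a median of -0.12. With no filter 1 was higher, and 1 was lower under upper-quartile scaling and 5 under quantile normalization. Ikbkb, which encodes the catalytic kinase IKKbeta, was at 92.1 ± 12.1 FPKM in FO B (Aged) and 56.4 ± 3.67 FPKM in ABCs (Aged) (SD, n = 3) and fell by 0.69 (limma FDR 0.00253). Bcl10, the antigen receptor adaptor, fell by 0.40 (FDR 0.00428). Ripk1, a kinase of TNF receptor signalling, rose by 0.68 (FDR 0.0122), and Myd88, the Toll-like receptor adaptor, rose by 0.48 (FDR 0.00650).

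Of the 8 tested genes of the noncanonical arm, 5 were lower and 0 higher in limma, against 16.5% and 19.4% of all genes, with a median of -0.41, and 1 was higher at an unadjusted p under 0.05. Traf5, an adaptor of TNF receptor family members, fell by 0.93 (limma FDR 0.000444). Tnfrsf13c, the BAFF receptor, was at 484 ± 10.8 FPKM in FO B (Aged) and 339.7 ± 39.8 FPKM in ABCs (Aged) and fell by 0.51 (FDR 0.00462). Traf3, which restrains the kinase NIK, fell by 0.51 (FDR 0.0165), and Birc3, which encodes cIAP2, fell by 0.41 (FDR 0.00485). The list holds both activators and restraints of the arm. Under upper-quartile scaling 2 of the 8 were lower and 1 was higher. With no filter, or without FO B (Aged) replicate 1 or ABCs (Aged) replicate 1, 3 were lower, and with all 9 libraries, with the replicate block or without FO B (Aged) replicate 3, 1 was higher. Ltbr was listed at 0 in all FO B libraries and not tested.

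Of the 25 tested NF-kappaB target genes, 11 were higher and 5 lower, against 19.4% and 16.5% of all genes, with a median of 0.53. With no filter 3 were lower, and with a filter of 5 FPKM 8 were higher. Cd80, Ccl5 and Vcam1, all called higher, averaged 0.312, 0 and 0.497 FPKM in FO B (Aged). They entered the test only through ABCs (Aged), so their direction was set by the filter. Cd80, a ligand of T cell costimulation, was at 0.312 ± 0.205 FPKM in FO B (Aged) and 25.7 ± 7.30 FPKM in ABCs (Aged), a log2 fold change of 4.32 (limma FDR 2.28e-05). Fas, the death receptor, rose by 2.99 (FDR 6.69e-06). The chemokine gene Ccl5 was listed at 0 in FO B (Aged) and at 1.92 to 5.34 FPKM in ABCs (Aged) (FDR 0.00141). Ltb, which encodes lymphotoxin beta, fell by 1.80 (FDR 0.00374). Targets were thus called in both directions.

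**Figure D4:**
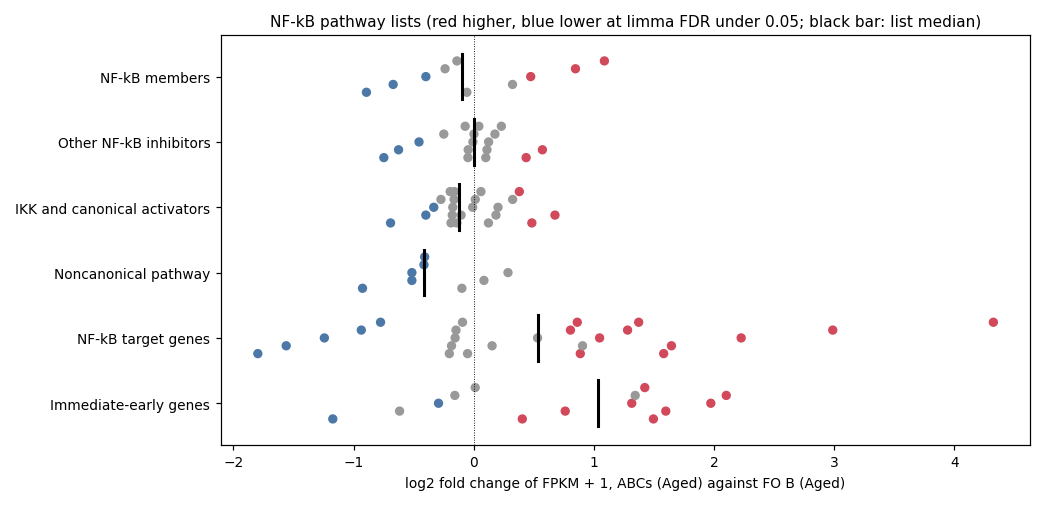
Log2 fold change of FPKM + 1 in ABCs (Aged) against FO B (Aged) for the members and 5 other lists, 1 point per tested gene, red where higher and blue where lower at a limma FDR under 0.05, grey where not called, with a black bar at the list median. The 8 noncanonical genes have a median of -0.41 and the 14 immediate-early genes a median of 1.04.

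Between the ages of FO B cells, 1 of 21 tested target genes was called, Irf1, a transcription factor of interferon responses, which rose by 0.48 (limma FDR 0.0404). The other inhibitors, the canonical activators and the noncanonical arm had 0 called genes in limma, against 0.464% of all genes. At an unadjusted limma p under 0.05 there were 1 of 17, 5 of 22 and 2 of 8 genes of these lists and 7 of the 21 targets, 5 higher and 2 lower, against 12.8% of all genes.

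Immediate-early genes, which respond within minutes to stimulation and to tissue handling, moved in the same comparison. Of 14 such genes, 8 were higher and 2 lower in ABCs (Aged) against FO B (Aged), against 19.4% and 16.5% of all genes. With no filter 4 were higher and 1 lower, and 1 was also lower under upper-quartile scaling and without FO B (Aged) replicate 1 or 3, or ABCs (Aged) replicate 1. Fos was at 97.7 to 184 FPKM in FO B (Aged) and at 444 to 809.8 FPKM in ABCs (Aged), and Egr1 rose by 1.97, Egr2 by 1.60 and Fosb by 1.50 on the log2 scale. Their summed level was 1386, 1533 and 1567 FPKM in FO B (Aged) and 1949, 2661 and 3024 FPKM in ABCs (Aged). The 3 ABC libraries had the same order for this sum as for Tnfaip3, Nfkbiz, Nfkb1 and Rela, and the reverse order for Nfkbid. Of these, Nfkb1 and Rela were not called. Few orders of 3 libraries are possible, and the share of all genes with this order was not taken. The order is thus a description and shows no link. In FO B (Aged) the order of the sum was not that of Tnfaip3 or Nfkbiz. Between the ages of FO B cells 2 of 13 tested immediate-early genes were called, Junb at 0.84 (limma FDR 0.0118) and Ier2 at 0.41 (FDR 0.0494), against 0.464% of all genes. At an unadjusted limma p under 0.05, 9 of the 13 passed, all higher, against 12.8% of all genes in either direction. For 7 of the 13 the ages did not overlap, all higher in FO B (Aged), against 9.64% of all genes. The part of immediate-early activity in the levels of the members was not tested.

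**Figure D5:**
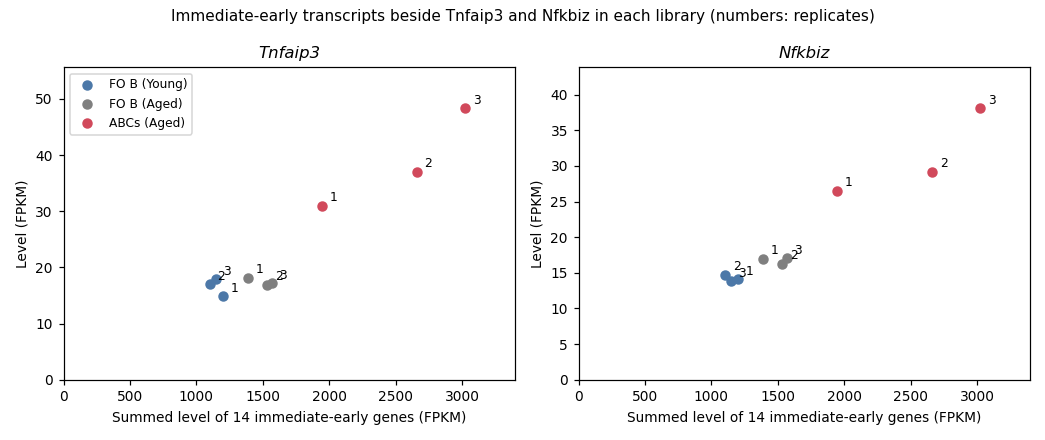
Level of Tnfaip3 (left) and Nfkbiz (right) in FPKM against the summed level of 14 immediate-early genes in FPKM, 1 point per library with its replicate number, for FO B (Young), FO B (Aged) and ABCs (Aged). The ABC libraries lie at 1949 to 3024 FPKM on the horizontal axis, to the right of the FO B libraries, and are in the same order on both axes. With so few libraries, few orders are possible.

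Markers of other cell types were read in the same libraries, as plasma cells and myeloid cells also transcribe NF-kappaB genes. Of 5 plasma cell markers 4 were higher in ABCs (Aged). The sum of the 5 was 426 to 453 FPKM in FO B (Aged) and 955 to 1259.7 FPKM in ABCs (Aged), of which Mzb1, also made by B cells, was 769 to 1049.9 FPKM. Jchain rose by 2.34 (limma FDR 0.0188), Prdm1 by 1.97 (FDR 0.00119) and Sdc1 by 1.82 (FDR 0.0142) on the log2 scale, and Xbp1 was not called. Prdm1 averaged 0.378 FPKM in FO B (Aged), so it entered the test only through ABCs (Aged). Of 10 macrophage and monocyte markers 5 were tested and 2 were higher, and their sum was 11.4 to 18.6 FPKM and 199 to 239 FPKM, of which Adgre1 was 174 to 222 FPKM in ABCs. The other higher marker, Cd68, was at 3.15 to 4.70 FPKM in FO B (Aged) and 6.38 to 13.1 FPKM in ABCs (Aged). It rose by 1.13 (limma FDR 0.0155). Lyz2, C1qb and C1qc were tested and not called. Csf1r was at 0.301 to 0.831 FPKM and Fcgr1 at 0 to 0.0464 FPKM in ABCs. Of 8 T cell markers 1 was tested, Cd3g, and it was higher. The sum of these markers was 0.457 to 1.05 FPKM and 5.09 to 38.3 FPKM, while Cd3e was at 0 to 0.0996 FPKM in ABCs. Cd3g was listed at 0 in FO B (Aged), so it entered the test only through ABCs (Aged) and could only come out as higher.

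The 6 NK cell markers summed to 0.600 to 1.01 FPKM in FO B (Aged) and 24.5 to 38.0 FPKM in ABCs (Aged). Of these 1, Prf1, was tested and higher, with Ncr1 at 0 to 0.0882 FPKM in ABCs (Aged). Prf1 averaged 0.816 FPKM in FO B (Aged), so it too entered the test only through ABCs (Aged). Of the 6 dendritic cell markers 3 were tested and 2 were higher, with sums of 1.93 to 4.20 FPKM and 7.81 to 13.5 FPKM. The 2, Batf3 and Zbtb46, averaged 0 and 0.853 FPKM in FO B (Aged) and entered in the same way. Of 6 neutrophil markers 5 were listed, 2 were tested and 1 was lower, with sums of 1.09 to 21.4 FPKM and 0.128 to 0.645 FPKM. The lower marker, S100a9, averaged 0.120 FPKM in ABCs (Aged) and entered only through FO B (Aged). The part of these markers in the member results was not tested.

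Pearson r of log2(FPKM + 1) over the 9 libraries was taken among 10375 genes that averaged 1 FPKM or more. The genes with the highest r to Tnfaip3 were Bmp6, Zfp105 and Nek7, each at 0.99. Nfkbiz came at place 47 with 0.98. The value of r takes no account of level. Bmp6 averaged 0.105 FPKM in FO B (Aged) and 5.89 FPKM in ABCs (Aged), and Zfp105 0 and 4.23 FPKM, against 17.4 and 38.8 FPKM for Tnfaip3. Both entered the ranking only through ABCs (Aged). For Rel the genes with the highest r were Nfyb, Pard6b and Itprip, each at 0.99, and Nfkb2 came at place 525 with 0.93. Pard6b averaged 1.91 FPKM in FO B (Aged) and 0.232 FPKM in ABCs (Aged), and it entered the ranking only through the FO B groups. The points share 3 groups and their libraries, so r mainly follows the difference between groups, and it is given as a description.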

How the data were processed

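Expression was measured by RNA-seq in 9 libraries of sorted splenic B cells. cDNA was made with a SMART-Seq HT kit and libraries with a Nextera kit. The authors deposited 1 FPKM value per gene and library. The submitters' processing notes name TopHat2 2.1.1, Bowtie2 2.2.8, SAMtools 0.1.18, Cuffdiff 2.2.1 and mm10. The gene annotation is not given in the sources used here. Groups came from the sample titles. A further marker of the sort gates and the B cell marker list are not reported here.

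A linear model of log2(FPKM + 1), by lmFit of limma 3.58.1 (R 4.3.3) followed by eBayes with trend, used the 6 libraries of each comparison and genes averaging 1 FPKM or more. Calls used a Benjamini-Hochberg FDR under 0.05. For single members the mean was compared by exact permutation, two-sided, over all 20 orders. The fit across genes was tested on simulated data. Tables and figures were made in Python 3.11.15 (pandas 2.3.3, numpy 2.4.6, scipy 1.17.1 and matplotlib 3.10.9). GENCODE M21 (GRCm38) gave the positions, and 23310 of the 24346 symbols matched it. Depth was estimated from genes with transcripts of at least 1000 bases, and reads per member from their longest transcript.

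The members and lists were chosen with earlier results of these data known. Named genes were the members and, from each pathway list, up to 4 called genes with the largest absolute log2 fold change in ABCs (Aged) against FO B (Aged). Each choice was changed in turn to a pseudocount of 0.1 or 0.01, a filter of 5 FPKM or none, quantile, upper-quartile or TPM scaling, eBayes without trend, a joint fit of the 9 libraries, a replicate block, stricter calls, or 1 library fewer. The counts of the pathway lists and the shares of the inhibitor genes were added after seeing the data.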

Additional observations from a re-analysis of the deposited data

How the results depend on the processing

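In ABCs (Aged) against FO B (Aged), Tnfaip3, Nfkbiz, Rel and Nfkb2 kept their direction and call in all 16 alternatives, with limma FDRs up to 0.0296, 0.0338, 0.0243 and 0.0439, highest with no filter. Nfkb1 was called with upper-quartile scaling (FDR 0.0265), and Relb without ABCs (Aged) replicate 3 (FDR 0.0471). Counts of all genes were 1045 lower with no filter and 603 lower with upper-quartile scaling. They were 155 higher and 45 lower past 2.3 at an FDR under 0.01, with 0 members in either direction, and 1254 higher and 818 lower at an FDR under 0.01. Leaving out 1 library gave 1496 to 1963 higher and 1054 to 1680 lower genes, and 2 to 3 higher and 2 to 4 lower members.

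In FO B (Aged) against FO B (Young) the counts were 17 higher and 21 lower with no filter, 27 lower with upper-quartile scaling, 22 higher without a trend, 13 higher and 5 lower with all 9 libraries, 2 higher and 0 lower past 2.3 at an FDR under 0.01, and 15 higher and 2 lower at an FDR under 0.01. Leaving out 1 library gave 16 to 48 higher genes (19, 20 and 16 without FO B (Young) 1 or 2 or FO B (Aged) 1), 2 to 27 lower genes and 0 members. In ABCs (Aged) against FO B (Young), members higher were 2 with no filter and 2 at an FDR under 0.01, and members lower were 4 with quantile normalization, with TPM and with all 9 libraries. All genes lower were 1313 with no filter and 927 with upper-quartile scaling. Past 2.3 at an FDR under 0.01 there were 180 higher, 50 lower and 0 members, and at an FDR under 0.01 there were 1440 higher and 1025 lower. Leaving out 1 library gave 1745 to 2212 higher and 1312 to 1951 lower genes, 2 to 4 higher members and 2 to 3 lower.

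Upper-quartile scaling moved the median of all genes to 0.15 in ABCs (Aged) against FO B (Aged) and to -0.12 between the ages. Signs turned only for members that were not called. Under that scaling Rela was 0.12 and Nfkbia 0.041 against FO B (Aged), Rela 0.039 and Nfkbia 0.028 against FO B (Young), and between the ages Rel was -0.10, Rela -0.083, Nfkbia -0.013, Nfkbie -0.10 and Tnfaip3 -0.053. Relative to the median of 0.15 in ABCs (Aged) against FO B (Aged), Rel was -0.87, Tnfaip3 1.11, Nfkb1 0.34 and Nfkbid -0.37. Leaving out 1 library, the ranges between the ages were -0.041 to 0.10 for Nfkbie, -0.0025 to 0.12 for Tnfaip3, -0.14 to 0.046 for Nfkb2, -0.079 to 0.13 for Rel and -0.062 to 0.10 for Nfkbid. Against FO B (Young) they were -0.066 to 0.033 for Rela and -0.13 to 0.050 for Nfkbia. The cause was not tested.

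With the replicate number as a block, 1891 genes were higher and 1557 lower in ABCs (Aged) against FO B (Aged), with 3 and 3 members, 28 and 9 between the ages, and 1947 and 1561 against FO B (Young), with 4 and 2 members. Same-numbered libraries of ABCs (Aged) and FO B (Aged) had residual correlations of 0.083, -0.018 and 0.109, not every library correlated best with its own number, and the numbers were not taken as pairs. Depth was estimated, and Nfkbiz rests on the fewest reads.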

Other observations

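Some listed pathway genes lay under the filter of the ABC comparison and belong to no test. The cytokine gene Il10 was listed at 0 in all 6 FO B libraries and at 0.334, 0.884 and 1.82 FPKM, from lowest to highest, in ABCs (Aged). Il6 was listed at 0 to 0.515 FPKM in FO B (Young), at 0 in FO B (Aged) and at 0, 0.505 and 3.04 FPKM in ABCs (Aged). Tnip3, from the list of other inhibitors, encodes a partner of A20. It was at 0.0631 to 0.345 FPKM in FO B (Aged) and at 0.898 to 1.30 FPKM in ABCs (Aged), so the libraries did not overlap at these low levels.

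Bcl3, an atypical IkappaB family gene outside the 10 members, can be set beside them. It was at 68.0 to 82.5 FPKM in FO B (Young), at 95.2 to 112 FPKM in FO B (Aged) and at 79.9 to 122 FPKM in ABCs (Aged). It was picked for its values, and the log2 fold change between the ages was 0.51 with a limma FDR of 0.0703.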
